A study of Mus musculus with 12 samples.

Results

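Acute phase proteins are plasma proteins whose blood levels change quickly after injury or infection. The genes followed here were Orm1, Saa1, Saa2, Saa3, Apcs and Itih3, and the members were all probe sets on the array whose single gene symbol in the platform annotation is one of these. That gave 6 of the 12422 probe sets measured, in 5 of the 6 genes. They were 1 each for Orm1, Saa3, Apcs and Itih3 and 2 for Saa2. No probe set carries Saa1 as its single symbol. A further probe set is annotated to Orm2 and Orm1 together and is therefore no member. All 6 member probe sets were kept in each comparison below, with no filter on low signal.

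The RNA was that of a single adult NMR-1 mouse, taken from its liver, cortex and cerebellum, and was measured on MG_U74Av2 oligonucleotide arrays. In the 3X groups, 1 ng of RNA passed through 3 linear amplifications with the RiboAmp HS kit, each a transcription from cDNA that is meant to keep the proportions between RNAs. Liver, cortex and cerebellum had 3 technical replicates each at 3X. In the 1X groups, 5 µg passed through a single linear amplification by the array maker's standard protocol, with 1 array per tissue, which gives 12 arrays in all. All arrays come from the same animal, so the p-values measure only the spread between technical replicates. Input, kit and number of amplifications differ together between 3X and 1X and cannot be told apart.

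In the liver, hepatocytes make most acute phase proteins under the control of interleukin-6 and interleukin-1, acting through STAT3, C/EBP and NF-kB. Serum amyloid A proteins (Saa1, Saa2, Saa3) are carried on high-density lipoprotein and are known for very large rises in inflammation. In mice Saa1 and Saa2 are liver genes, while Saa3 is also made by macrophages and fat. Orm1 encodes alpha-1-acid glycoprotein, a drug-binding lipocalin. Apcs encodes serum amyloid P component, the pentraxin that serves as a main acute phase reactant of mice. Itih3 encodes a heavy chain of the inter-alpha-trypsin inhibitors, which bind hyaluronan in the matrix. In bulk tissue, fewer cells of a type and less RNA per cell cannot be told apart.

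Saa1 and Saa2 are neighbours on chromosome 7, with Saa3 and Saa4 close by, and the sequences at their start sites show how alike Saa1 and Saa2 are. RefSeq promoters (250 bases before to 50 after the annotated start, assembly GRCm38.p6) were found for 5 of the 6 genes, all but Orm1. The capitals mark matches to TTGCNNAA, the core of a C/EBP site, in the serum amyloid A promoters and to TTCNNNGAA, a STAT site, in the Apcs promoter.
Saa1 (chr7:46742931-46743230, minus strand): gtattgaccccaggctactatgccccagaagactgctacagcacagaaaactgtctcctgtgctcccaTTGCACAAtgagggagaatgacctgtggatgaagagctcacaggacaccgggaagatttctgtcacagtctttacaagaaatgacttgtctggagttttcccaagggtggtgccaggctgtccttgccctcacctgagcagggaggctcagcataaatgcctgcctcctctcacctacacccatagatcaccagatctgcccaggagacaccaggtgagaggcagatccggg
Saa2 (chr7:46751583-46751882, plus strand): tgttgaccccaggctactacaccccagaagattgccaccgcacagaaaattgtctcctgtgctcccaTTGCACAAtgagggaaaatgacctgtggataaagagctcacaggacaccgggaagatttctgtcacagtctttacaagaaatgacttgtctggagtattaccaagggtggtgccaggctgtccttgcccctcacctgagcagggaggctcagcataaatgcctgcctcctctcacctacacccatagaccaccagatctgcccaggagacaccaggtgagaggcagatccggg
Saa3 (chr7:46715627-46715926, minus strand): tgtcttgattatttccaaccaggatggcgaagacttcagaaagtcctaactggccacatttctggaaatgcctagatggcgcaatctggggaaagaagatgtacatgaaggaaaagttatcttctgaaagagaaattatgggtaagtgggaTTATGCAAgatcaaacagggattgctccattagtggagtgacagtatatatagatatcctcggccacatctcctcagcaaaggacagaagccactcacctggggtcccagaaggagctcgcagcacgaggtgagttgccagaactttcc
Apcs (chr1:172895005-172895304, minus strand): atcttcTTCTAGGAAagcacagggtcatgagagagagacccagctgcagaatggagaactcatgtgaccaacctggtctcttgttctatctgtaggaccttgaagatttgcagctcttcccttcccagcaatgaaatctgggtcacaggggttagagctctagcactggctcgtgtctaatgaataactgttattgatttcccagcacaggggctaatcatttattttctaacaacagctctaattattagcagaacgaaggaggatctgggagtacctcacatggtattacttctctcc
Saa1 and Saa2 were identical at 287 of 301 aligned positions (95.3%), against 53.3% for Saa2 and Saa3, and unrelated promoters such as Apcs and Itih3 gave 49.1% in the same global alignment. RefSeq lists Saa2 as an older name of Saa1 and Saa1 as an older name of Saa2. Signal of the Saa2 probe sets may therefore include Saa1 transcripts, which was not tested. Both strands were searched, and matches of different motifs did not overlap. The C/EBP core was found once each in Saa1, Saa2 and Saa3, and in 10.8% of all 32841 promoters of this length. The STAT site was found in Apcs, and in 8.3% of all. An NF-kB core, GGG and CC with 5 bases between them, was found before the start in Saa1 and Saa2 and after the start, at base 17, in Itih3, and in 50.8% of all. The letters TATAAA were found in Itih3, whose promoter is not shown, at base 4 after the start, which is not where a TATA box lies, and in 13.6% of all.

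Signals are log2 values per probe set, and the array medians lay between 3.45 and 3.48. A signal below that median is called dim here. The deposited values carry no detection call, so no fold is given where one side was dim, and a difference given there is one of signals and not a measured difference in RNA. Levels of different probe sets are not comparable with each other. The first comparison, in limma, was liver minus the average of cortex and cerebellum, and an adjusted p under 0.05 over all 12422 probe sets counts as a call. At 3X liver was higher for 4 of the 6 members (Orm1, Saa3, Apcs and Itih3) and lower for none, where 20.4% of all probe sets were called, 8.17% as higher and 12.3% as lower. The median difference of the 6 members was 0.48, against 0.01 over all probe sets. In 3 members (Orm1, Apcs and Itih3) no 3X liver array overlapped a 3X brain array, where 20.4% of all probe sets were free of overlap and 9.10% had liver above brain.

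**Figure D1:**
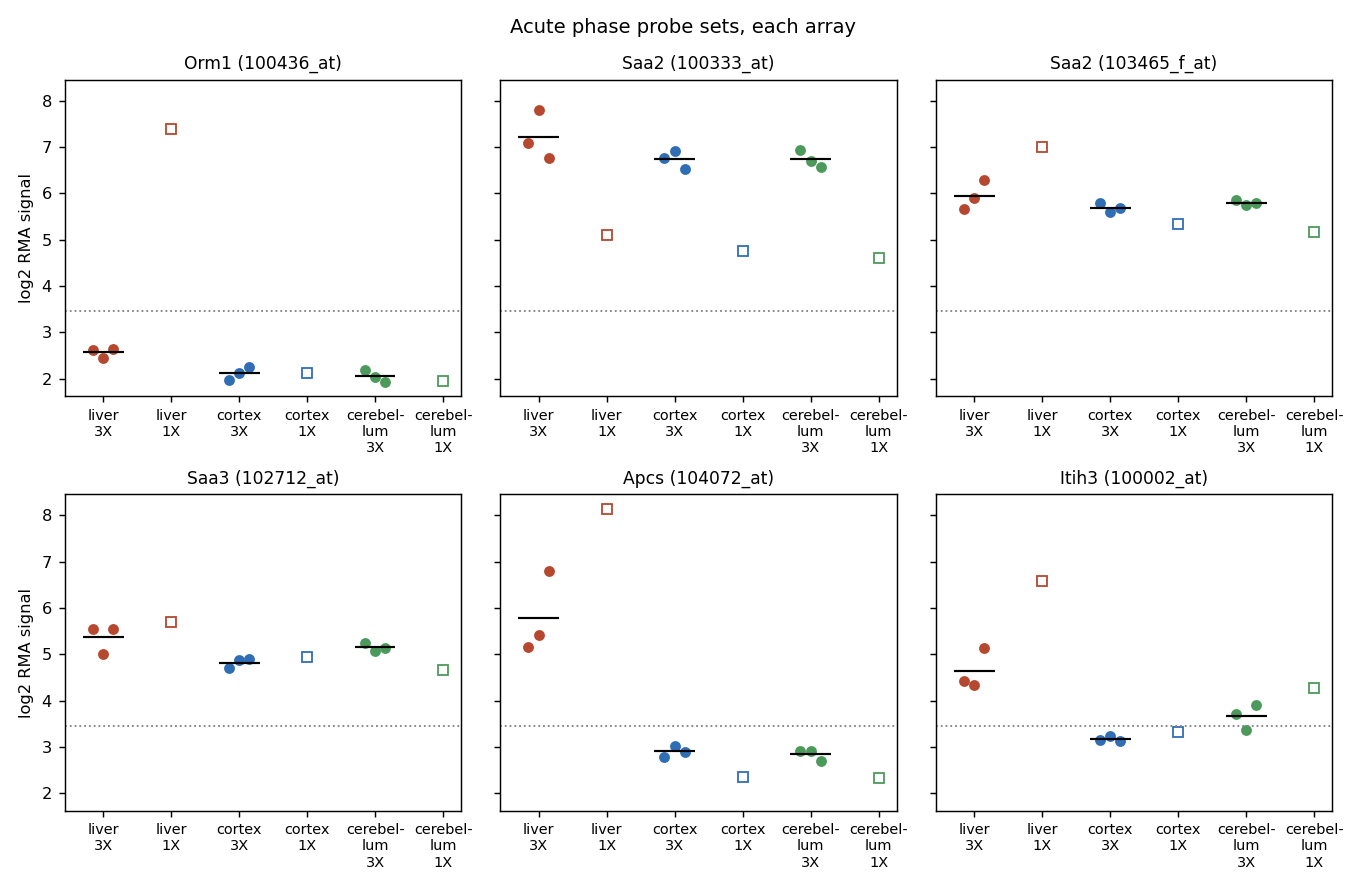
Log2 signal of each member probe set (vertical axis) on each array, grouped by tissue and procedure; filled circles are 3X arrays, open squares 1X arrays, black lines the means of 3 arrays, and the dotted line the median of an array. The 1X liver array stands far above all other arrays for Orm1 at 7.39, and the plain Saa2 probe set (upper row, middle) is higher on all 3X arrays than on any 1X array.

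Apcs signals separated liver clearly from brain at 3X. They were 5.15, 5.41 and 6.81 in liver, 2.79, 3.03 and 2.90 in cortex, and 2.91, 2.91 and 2.71 in cerebellum. All liver arrays lay above all brain arrays, and the brain signals were dim. The difference was 2.91 ± 0.29 (SE, from 3 arrays of liver and 6 of brain; adjusted p = 3.71e-05 by limma). The liver SD was 0.892, against 0.120 in cortex and 0.117 in cerebellum, so the shared spread of the fit understates that of liver. Liver replicate 3 was the high one, and without it the difference was 2.40. The same array had the highest mean over 15 hepatocyte marker genes, at 10.24, against 9.56 and 9.28 for replicates 1 and 2. The part of this in the spread of Apcs was not tested.

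Itih3 had 3X signals of 4.42, 4.35 and 5.13 in liver, 3.16, 3.23 and 3.13 in cortex, and 3.71, 3.36 and 3.91 in cerebellum. Liver replicate 3 was again the highest array, and cerebellum lay between liver and cortex. All cortex signals were dim, as was the cerebellar signal of 3.36. Liver exceeded the brain mean by 1.22 ± 0.17 (limma adjusted p = 5e-04), by 1.46 ± 0.20 against cortex and by 0.97 ± 0.20 against cerebellum. Without liver replicate 3 the first of these was 0.97.

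Orm1 was dim on every 3X array, liver included. Its 3X signals were 2.63, 2.46 and 2.65 in liver, 1.97, 2.13 and 2.26 in cortex, and 2.20, 2.05 and 1.94 in cerebellum. The liver arrays still lay above the others without overlap, by 0.49 ± 0.09 (limma adjusted p = 0.00303).

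For the 3 serum amyloid A probe sets, liver and brain arrays overlapped at 3X. Saa3 signals at 3X were 5.54, 5.02 and 5.55 in liver, 4.70, 4.87 and 4.90 in cortex, and 5.25, 5.08 and 5.13 in cerebellum. Liver replicate 2 lay above all cortex arrays but below all cerebellar ones, so liver and brain overlapped. The difference of 0.38 ± 0.12 was just past the threshold (1.30-fold; limma adjusted p = 0.0451). It lost its call when any of 8 of the 9 arrays was left out, with adjusted p from 0.00165 to 0.176 over the 9 fits. Against cortex alone Saa3 was called (0.55 ± 0.14; adjusted p = 0.0199), and against cerebellum alone it was not (0.22 ± 0.14; adjusted p = 0.362). In all, 4 members were higher in liver than in cortex, where 6.64% of all probe sets were called higher, 10.1% lower and 16.8% either way. Orm1, Apcs and Itih3, 3 members, were higher in liver than in cerebellum, where 6.38% were called higher, 10.2% lower and 16.6% either way.

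Neither Saa2 probe set was called between liver and brain at 3X. The plain probe set, which has no suffix for shared probes, had signals of 7.08, 7.81 and 6.75 in liver, 6.77, 6.91 and 6.53 in cortex, and 6.95, 6.70 and 6.57 in cerebellum. Liver replicate 3 fell within the brain range, and the difference was 0.48 ± 0.20 (adjusted p = 0.125). It depended on single liver arrays, being 0.71 and called without replicate 3 (adjusted p = 0.0128) but 0.18 without replicate 2 (adjusted p = 0.48). The family-type probe set, whose suffix marks probes shared within a sequence family, had 5.66, 5.90 and 6.29 in liver, 5.79, 5.60 and 5.69 in cortex, and 5.85, 5.76 and 5.79 in cerebellum. Here liver replicate 1 lay within the brain range, and the difference was 0.20 ± 0.12 (adjusted p = 0.291). It was 0.35 without liver replicate 1 (adjusted p = 0.0576) and 0.03 without liver replicate 3 (adjusted p = 0.837). The mean of both Saa2 probe sets was called, at 0.34 ± 0.10 (adjusted p = 0.0387).

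The same comparison at 1X rested on 1 array per tissue. Its tests came from a fit of all 12 arrays, in which the spread of the 3X replicates had to stand in for that of each lone 1X array. At 1X liver was higher for 5 of the 6 members and lower for none, where 10.4% of all probe sets were called higher and 24.3% in either direction. The median difference was 2.27, against -0.02 over all probe sets. Apcs had 8.14 in liver, 2.36 in cortex and 2.33 in cerebellum, a difference of 5.80 ± 0.50 (limma adjusted p = 7.98e-06). Orm1 had 7.39 in liver, 2.12 in cortex and 1.96 in cerebellum, a difference of 5.35 ± 0.16 (limma adjusted p = 6.96e-09). Both were thus bright in liver and dim in both brain regions. For Itih3 the cortex signal was dim and the cerebellar one was not. Itih3 had 6.58 in liver, 3.32 in cortex and 4.29 in cerebellum, so that cerebellum again lay above cortex, and liver exceeded the brain mean by 2.78 ± 0.30 (limma adjusted p = 4.18e-05).

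The signals of the Saa2 and Saa3 probe sets were above the array median at 1X in every tissue. The family-type Saa2 probe set had 7.00 in liver, 5.34 in cortex and 5.17 in cerebellum, 3.37-fold higher in liver than in brain (1.75 ± 0.21; limma adjusted p = 7.92e-05). Saa3 had 5.69 in liver, 4.94 in cortex and 4.67 in cerebellum, 1.86-fold higher in liver (0.89 ± 0.21; limma adjusted p = 0.00815). The plain Saa2 probe set, with 5.11 in liver, 4.76 in cortex and 4.60 in cerebellum, was not called (0.43 ± 0.34; adjusted p = 0.515).

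**Figure D2:**
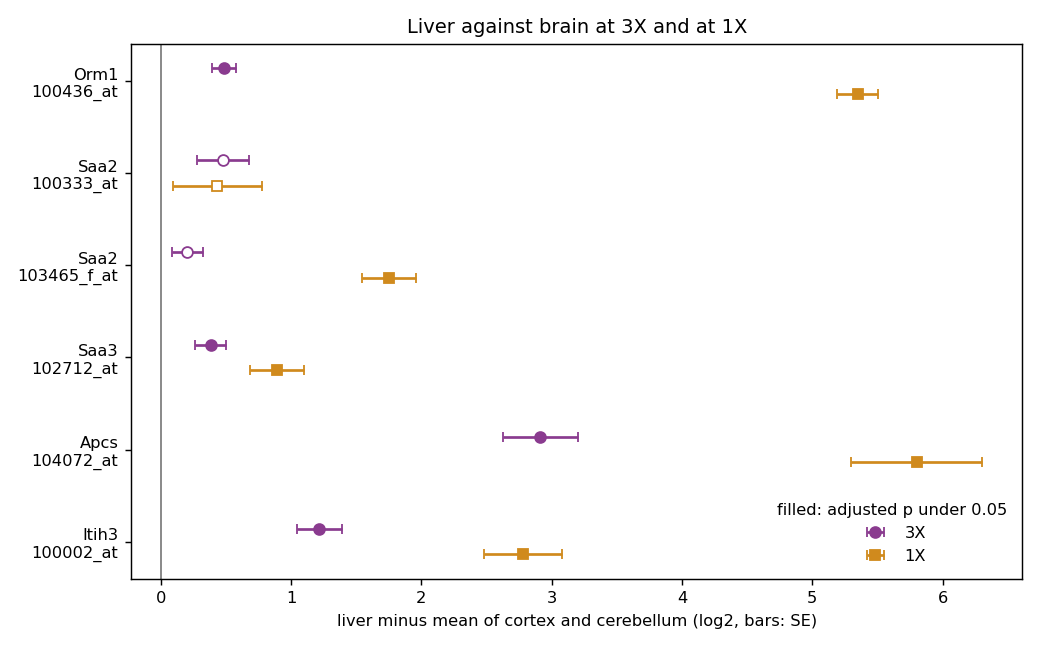
Liver minus the mean of cortex and cerebellum on the log2 scale (horizontal axis; bars are SE from limma) for each member, with 3X as circles above 1X as squares; filled symbols passed an adjusted p of 0.05. The difference is 2.91 at 3X and 5.80 at 1X for Apcs, and 0.49 at 3X and 5.35 at 1X for Orm1.

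The 3X and 1X procedures gave liver-brain differences of unequal size, and the change itself was tested as an interaction. It was smaller at 3X for 4 of the 6 members (Orm1, Apcs, Itih3 and the family-type Saa2 probe set) and larger for none, where 6.37% of all probe sets had a negative interaction that was called. Marker genes of the tissues moved with this. The interaction was negative for 6 of 15 hepatocyte markers and positive for none (median -1.07). It was positive, again a smaller gap since these genes were lower in liver, for 4 of 7 astrocyte markers (median 1.52) and 4 of 8 neuron markers (median 1.00), and negative for none of them. The neuronal gene Snap25 had 6.17 in liver at 3X and 2.99 in liver at 1X, a change of 3.18 and the largest among the 8 neuron markers. The next largest was 0.91 for Map2. The median change of the 8 from 1X to 3X was 0.34 in liver and -0.81 in brain. The part of these shifts in the members' values was not tested. The interaction (3X difference minus 1X difference) was -4.86 ± 0.18 for Orm1 (limma adjusted p = 3.9e-07). Orm1 was dim everywhere but in 1X liver, so this is a difference of signals and does not measure how far its RNA differed. It was -2.89 ± 0.58 for Apcs (limma adjusted p = 0.00685), -1.56 ± 0.34 for Itih3 (0.0118) and -1.55 ± 0.24 for the family-type Saa2 probe set (0.00122). Saa3 at -0.51 ± 0.24 (adjusted p = 0.245) and the plain Saa2 probe set at 0.05 ± 0.40 (0.978) did not pass.

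Within liver, 4 members were lower and 1 was higher at 3X than at 1X, where 15.7% of all probe sets were called lower, 19.8% higher and 35.5% either way. Over all probe sets the median change was 0.15 in liver and 0.13 in brain, and small changes are to be read against that. Orm1 averaged 2.58 ± 0.11 at 3X (SD, n = 3) and had 7.39 at 1X in liver, so it was bright by the standard protocol and dim after 3 amplifications. The signal differed by -4.81 ± 0.15 (limma adjusted p = 3.42e-08), a size that holds only for the signal, since the 3X side was dim. Apcs averaged 5.79 ± 0.89 at 3X and had 8.14 at 1X, which is 5.11-fold lower at 3X (-2.35 ± 0.47; limma adjusted p = 0.00387). Itih3 averaged 4.63 ± 0.43 at 3X and had 6.58 at 1X, 3.85-fold lower at 3X (-1.95 ± 0.28; limma adjusted p = 0.000525). All 3 liver arrays at 3X lay below the 1X array for each of these genes.

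The Saa2 probe sets changed in opposite directions in liver. The family-type probe set averaged 5.95 ± 0.31 at 3X and had 7.00 at 1X, 2.08-fold lower at 3X (-1.05 ± 0.19; limma adjusted p = 0.00228). The plain probe set averaged 7.22 ± 0.54 at 3X and had 5.11 at 1X, 4.30-fold higher at 3X (2.10 ± 0.32; limma adjusted p = 0.000759), the 25th highest of all probe sets. Their mean in liver was called higher at 3X, by 0.52 ± 0.17 (adjusted p = 0.0349). Saa3 averaged 5.37 ± 0.30 at 3X and had 5.69 at 1X, a difference of -0.32 ± 0.19 that did not pass (adjusted p = 0.209).

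In the brain regions, 2 members were higher at 3X and none lower, where 29.9% of all probe sets were called higher and 20.1% were called lower. Both were Saa2 probe sets. The rise of the plain probe set, 4.16-fold (2.06 ± 0.23; limma adjusted p = 4.82e-05), differed from that in liver by only 0.05 ± 0.40, and all 6 brain arrays at 3X, from 6.53 to 6.95, lay above the 1X signals of 4.76 in cortex and 4.60 in cerebellum. The family-type probe set rose by 0.50 ± 0.14 (limma adjusted p = 0.0129), but not with cortex alone as the brain side (0.36; adjusted p = 0.197). Orm1 (0.05 ± 0.10), Apcs (0.53 ± 0.33), Itih3 (-0.38 ± 0.20) and Saa3 (0.19 ± 0.14) missed the threshold, their adjusted p lying between 0.131 and 0.695. With liver replicate 3 left out, Apcs (adjusted p = 0.00154) and Itih3 (0.0239) passed with the same differences, since the estimated spread changed.

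**Figure D3:**
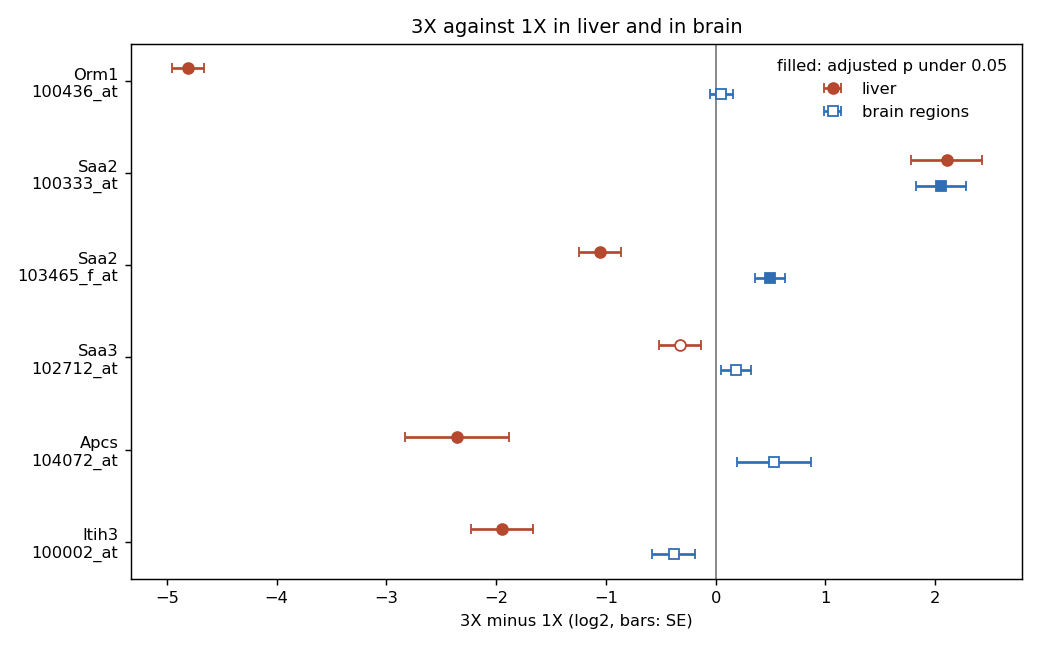
Change with the procedure, 3X minus 1X on the log2 scale (horizontal axis; bars are SE from limma), for each member in liver (circles) and over both brain regions (squares); filled symbols passed an adjusted p of 0.05. Orm1 stands at -4.81 in liver and 0.05 in brain, while the plain Saa2 probe set stands at 2.10 in liver and 2.06 in brain.

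Close relatives of the members were read beside them, because they share sequence or a chromosomal neighbourhood. The probe set annotated to Orm2 and Orm1 together, which names neither, had 11.03, 10.84 and 11.82 in liver at 3X and 10.60 in liver at 1X. In brain it had 4.76 to 5.07 at 3X, and at 1X it had 4.51 in cortex and 4.36 in cerebellum. Its liver signal was thus bright by both procedures, unlike that of the Orm1 probe set, and its liver-brain difference was 6.32 ± 0.18 at 3X (limma adjusted p = 1.8e-09) and 6.16 ± 0.31 at 1X (1.5e-07). The interaction for it was 0.16 ± 0.35 (adjusted p = 0.897). Orm2, another alpha-1-acid glycoprotein gene, averaged 4.46 ± 0.04 at 3X and had 5.34 at 1X in liver, and its liver-brain difference was 0.27 ± 0.08 at 3X and 1.37 ± 0.14 at 1X. Saa4, a serum amyloid A gene known for constitutive expression, averaged 3.29 ± 0.04 at 3X and had 5.16 at 1X in liver. Its liver-brain difference was 0.15 ± 0.07 at 3X (adjusted p = 0.191) and 2.25 ± 0.13 at 1X (limma adjusted p = 4.05e-07). Like Orm1, Saa4 was dim on every array but that of 1X liver, so these are differences of signals. Crp, the pentraxin that is the main reactant in humans but a minor one in mice, averaged 3.29 ± 0.19 at 3X and had 3.47 at 1X in liver, near the array median.

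**Figure D4:**
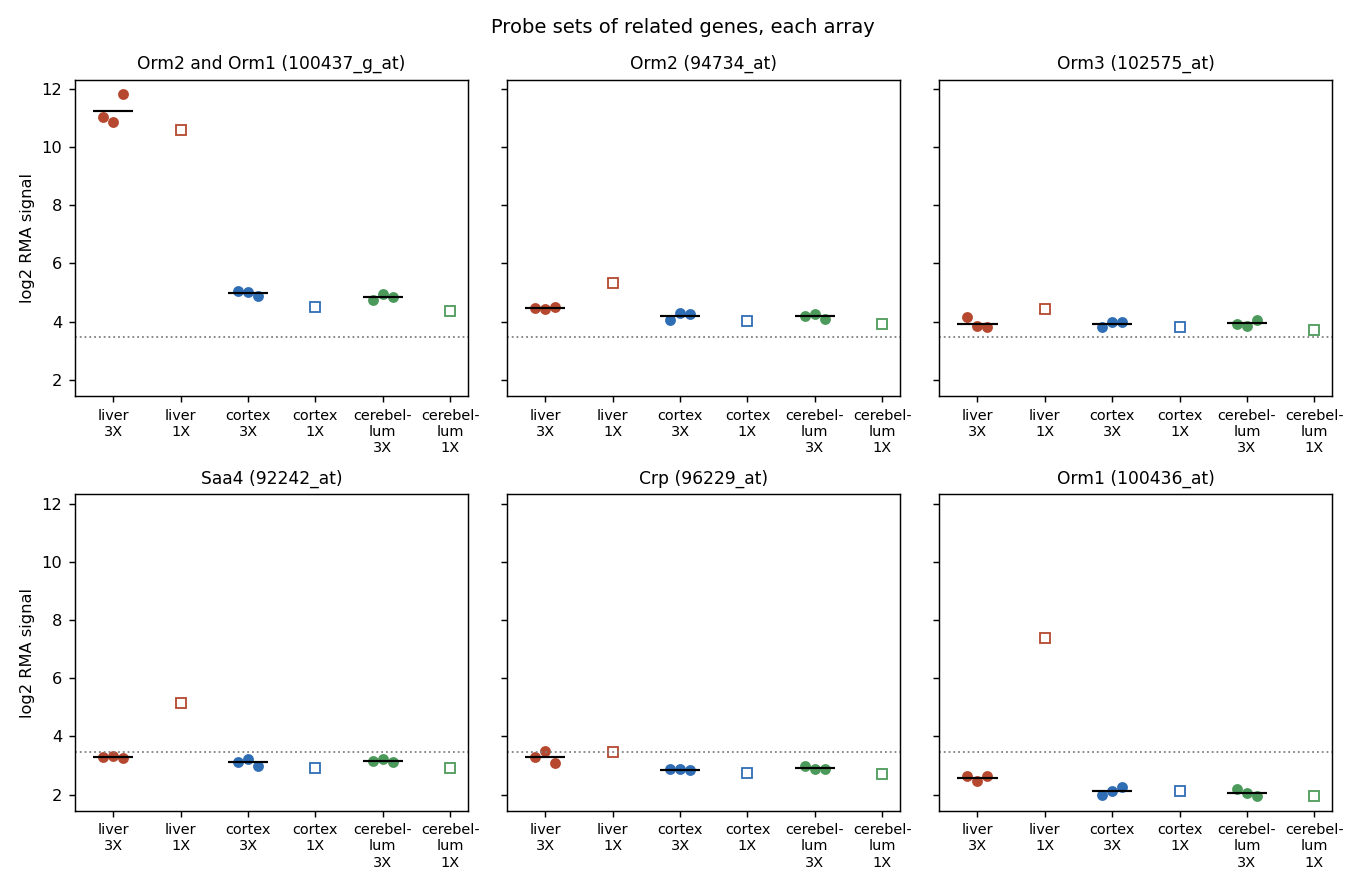
Log2 signal (vertical axis) on each array for the probe set annotated to Orm2 and Orm1 together, for Orm2, Orm3, Saa4 and Crp, and for the Orm1 member; symbols as in the plot of the members. In 3X liver the shared probe set lies between 10.84 and 11.82 while the Orm1 probe set lies between 2.46 and 2.65.

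Between cortex and cerebellum at 3X, 0 of 6 members were called by limma, where 1.06% of all probe sets were called and 0.628% were lower in cortex. At the looser threshold of an unadjusted p under 0.05 there were 2. No share of all probe sets is given at that threshold, so this count cannot show that the members stand out. The 2 were Itih3 (cortex minus cerebellum, -0.49 ± 0.20; limma adjusted p = 0.506) and Saa3 (-0.33 ± 0.14; limma adjusted p = 0.53). At 1X, Itih3 had 3.32 in cortex and 4.29 in cerebellum, but Saa3 had 4.94 in cortex and 4.67 in cerebellum, the other way round. Kidney marker genes moved with the cerebellum label, with 5 of 18 measured genes called lower in cortex and none higher. Their mean level was 3.48 to 3.53 in cortex and 4.03 to 4.11 in cerebellum at 3X, and 3.34 in cortex and 4.29 in cerebellum at 1X. The list includes Calb1, whose mean signal over both brain regions was 4.08 at 3X and 5.50 at 1X. Its part in these levels was not tested. The median difference of the 18 genes at 3X was -0.30. Red blood cell markers also went with that label, with 1 of 4 called lower in cortex and mean levels of 4.39 to 4.62 in cortex and 5.00 to 5.16 in cerebellum at 3X, and 5.48 in cortex and 6.53 in cerebellum at 1X. Astrocyte markers had 1 of 7 called lower in cortex, with mean levels of 4.86 to 4.96 in cortex and 5.03 to 5.16 in cerebellum at 3X, and 5.57 in cortex and 6.40 in cerebellum at 1X. The part of these markers in the Itih3 signal of cerebellum was not tested.

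Across the 12 arrays, the members formed no single pattern. Pearson's r between member probe sets was taken over all 12 arrays, which share an animal but differ in tissue and procedure. It was 0.89 for Apcs and Itih3, 0.85 for Apcs and the family-type Saa2 probe set and 0.84 for Orm1 and Itih3. It was 0.09 between the Saa2 probe sets and -0.32 between Orm1 and the plain Saa2 probe set. The genes most like Apcs were the coagulation factors F9 (r = 0.997) and F12 (0.996) and the tyrosine-degrading enzyme Tat (0.995). Orm1 was most like Tdo2 (0.995), which degrades tryptophan, Hamp (0.993), the iron hormone hepcidin, and Man1a (0.992), which trims glycans. Every r of Orm1 rests largely on the lone 1X liver array, where it had 7.39, since it was dim on all other arrays. Hamp likewise had 8.92 there and a mean of 2.68 in 3X liver. These values therefore cannot show that the genes vary together. The other r also span steps between tissues or procedures. Apcs had 5.15 to 8.14 on the liver arrays and 2.33 to 3.03 on the brain arrays. The plain Saa2 probe set had 4.60 to 5.11 at 1X and 6.53 to 7.81 at 3X. No r given here can show that genes vary together within a tissue and procedure. Itih3 was most like Cat (catalase, 0.976), Lypla1 (0.966) and Gstk1 (0.965). Saa3 was most like G0s2 (0.926), Rxra (0.899) and Ifi47 (0.892). The family-type Saa2 probe set was most like Fcgr2b (0.974), St3gal1 (0.966) and the bile acid-conjugating ligase Slc27a5 (0.964), and the plain probe set was most like Lsp1 (0.994), the ATP synthase subunit Atp5d (0.991) and Ndc80 (0.990).

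Other acute phase genes were summarised from lists written from textbook knowledge, with the brightest probe set for each gene. Of 31 measured genes for proteins that rise in the acute phase, the members left out, 23 were called higher in liver at 3X and 28 at 1X, and none lower. Their median difference was 1.26 for 3X and 4.55 for 1X. The widest differences of signal in this list at 3X were those of Plg (8.76 ± 0.25), Serpina1b (6.83 ± 0.13) and Hpx (6.81 ± 0.13). They encode plasminogen, an antitrypsin and the heme-binding hemopexin, and their brain signals were dim. All 3 were read from family-type probe sets, so related genes may add to the signal, which was not tested. Not called at 3X were Hamp (0.28 ± 0.09; adjusted p = 0.0624), Lcn2, Cd14, Il1rn, the metallothioneins Mt1 and Mt2, Orm3 and Saa4. The liver-brain difference was smaller at 3X, by the interaction, in 18 of the 31 and larger in none, and 15 were lower and 3 higher at 3X in liver.

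Of 12 genes for proteins that fall in the acute phase, 9 were higher in liver at 3X and 12 at 1X. Alb, albumin, differed by 7.32 ± 0.22 at 3X and 9.06 ± 0.39 at 1X, and Apoa1 by 6.87 ± 0.14 at 3X and 8.45 ± 0.24 at 1X. The interaction was called negative in 9 of the 12, with a median of -1.40. Among partners of Itih3, the heavy chain genes Itih1 (1.91 ± 0.29), Itih2 (2.73 ± 0.24) and Itih4 (1.55 ± 0.24) and Ambp, the precursor of the bikunin light chain (5.88 ± 0.17), were called higher in liver at 3X, which makes 4 of 9 in that list, with none lower. At 1X the same 4 were higher and Itih5 was lower (-0.60 ± 0.16). The differences were larger at 1X for Itih1 (4.75 ± 0.50), Itih2 (5.80 ± 0.42), Itih4 (5.28 ± 0.41) and Ambp (7.74 ± 0.30). Mean brain signals were dim for Itih2 (3.15 at 3X, 2.62 at 1X) and Ambp (2.49 at 3X, 2.29 at 1X). Of the pentraxin relatives of Apcs, 1 of 4 was higher in liver at 3X, Crp (0.40 ± 0.09), and 1 was lower, the neuronal pentraxin Nptx1 (-0.29 ± 0.08). Mean signals were dim on both sides, at 3.29 in liver and 2.88 in brain for Crp and 3.14 and 3.44 for Nptx1. Both are therefore differences of signals only. Lipocalin relatives of Orm1 had 6 of 11 higher and 2 lower, Ptgds (-7.13 ± 0.40, a family-type probe set) and Apod (-1.09 ± 0.15).

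Genes of acute phase signalling had 6 of 28 called higher in liver at 3X and 7 at 1X, none lower, with medians of 0.08 and 0.19. They included Lifr, a receptor of the interleukin-6 family (1.44 ± 0.26 at 3X; 5.03 ± 0.46 at 1X), the transcription factor Cebpa (0.89 ± 0.08 at 3X; 3.33 ± 0.14 at 1X) and Stat5a (0.64 ± 0.10 at 3X), which was not called at 1X (0.12 ± 0.17; adjusted p = 0.8).

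**Figure D5:**
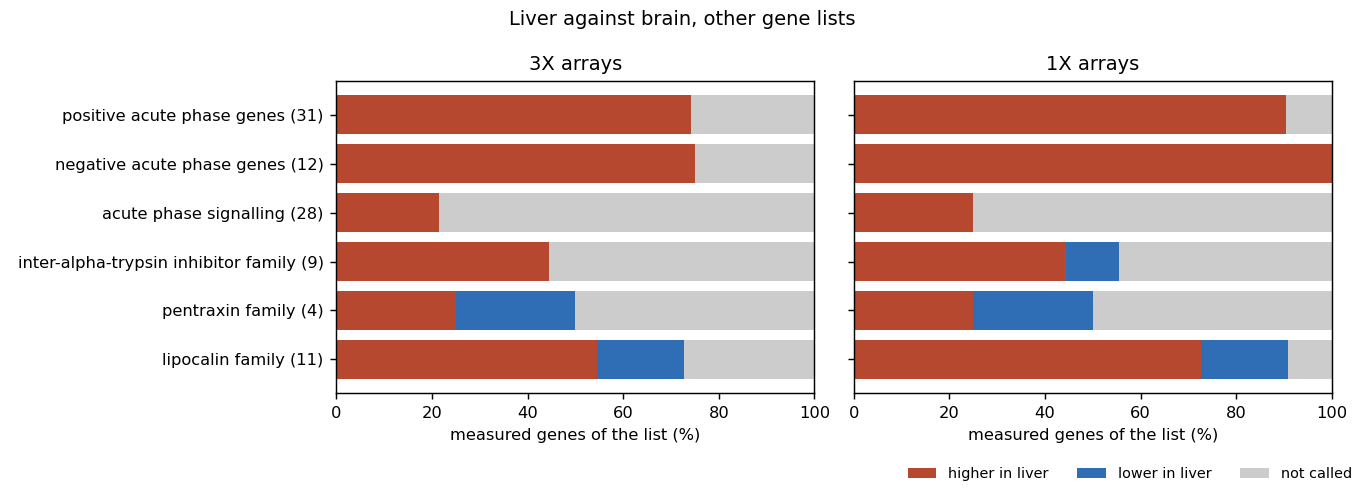
Share of the measured genes of 6 lists (number in brackets) that were called higher in liver, called lower in liver, or not called between liver and brain, with 3X arrays on the left and 1X arrays on the right; the horizontal axis is in percent. Genes for proteins that rise in the acute phase were higher for 23 of 31 at 3X and for 28 of 31 at 1X.

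The tissue labels were checked with marker lists at 3X. Hepatocyte markers were higher in liver for 14 of 15 genes, while neuron markers were lower for 6 of 8 and astrocyte markers for 5 of 7. Macrophage markers, read beside Saa3, were higher in liver for 4 of 13 genes, among them Clec4f of Kupffer cells (1.11 ± 0.14), and lower for 1. Their mean level was 3.79 to 3.85 on the 3X liver arrays and 3.60 to 3.75 on the 3X brain arrays, and their part in the Saa3 signal was not tested. Adipocyte markers had 1 of 7 higher and 1 lower, and neutrophil markers 1 of 8 higher. Red blood cell markers had 2 of 4 lower in liver. Choroid plexus markers had 0 of 4 called by limma and 2 at an unadjusted p under 0.05, for which no share of all probe sets is given.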

How the data were processed

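Per the submitters' processing notes, the authors made the deposited log2 signals with RMA, which corrects background, normalizes arrays by quantiles and summarises each probe set. The log base was read from the range of the values. That base, the RMA version and the use of a joint run for all 12 arrays were not stated in these sources. The 66 control probe sets were kept out, which left 12422. Genes were named from the platform annotation, only where a probe set had 1 symbol (10833). No pair of arrays was identical. The number of arrays limits the precision.

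Testing used limma (version 3.58.1, under R 4.3.3) with moderated two-sided statistics, and p-values were adjusted by Benjamini-Hochberg over all probe sets tested. Comparisons among 3X arrays used the 9 3X arrays and a shared spread. Comparisons with 1X used all 12 arrays and 6 group means. Of each other list, the rule names up to 3 genes with the largest liver-brain difference at 3X, and for each member the 3 genes with the highest Pearson's r over the 12 arrays. Other genes named beside a count, such as Orm3, Saa4, Itih4, Itih5 and Apod, were chosen after their values were seen. The members and lists were chosen with earlier results of these data known. The alternatives were quantile normalization, median centring, a filter on dim probe sets, probe sets without a suffix, a mean per gene, a trended and robust variance, a replicate block, the 3X comparisons fitted with all 12 arrays, and the omission of each 3X array. The fits were tested on simulated arrays with known changes. Promoters were aligned globally with Biopython 1.88.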

Additional observations from a re-analysis of the deposited data

Results flagged for a closer look

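In 4 members the change from 1X to 3X differed between liver and brain by the test of that difference itself, the interaction in limma. By the same test 6.37% of all probe sets were called negative and 6.87% positive. The change in liver minus that in brain was -4.86 for Orm1, -2.89 for Apcs, -1.56 for Itih3 and -1.55 for the family-type Saa2 probe set. For Orm1 the change was -4.81 in liver and 0.05 in brain, and for the family-type Saa2 probe set -1.05 in liver and 0.50 in brain. The brain signals of Orm1 and Apcs were dim by both procedures, as were the cortex signals of Itih3. Orm1 was also dim in 3X liver (2.46 to 2.65), so its values are differences of signals and not of RNA. The probe set annotated to Orm2 and Orm1 together was bright in liver by both procedures. Its interaction was 0.16 ± 0.35 (limma adjusted p = 0.897). The liver-brain gap also narrowed at 3X in marker genes that are no members, with the interaction called in 6 of 15 hepatocyte markers (all negative), 4 of 7 astrocyte markers and 4 of 8 neuron markers (all positive). Groups of 3 arrays or 1 array were not searched for outlying samples.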

How the results depend on the processing

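Cortex against cerebellum had 0 members called, so a ratio of counts cannot test it. With it included, the count of members called kept within 1.5 times of its value under every alternative for 5 of the 6 comparisons. The exception was 3X against 1X in brain, with 2 members called, which became 1 with probe sets without a suffix, 1 with a mean per gene and 1 with cortex alone as the brain side (chosen after seeing the data), and 2 to 4 when an array was left out, the 4 coming without liver replicate 3. The first setting removes 1 of the members and the second merges the Saa2 probe sets, and for the others the cause was not tested. There were 564 single member differences under alternatives. Of these, 551 kept their direction and their side of the threshold or were never called, 9 lost and 4 gained a call, and none reversed a call. The liver-brain differences at 1X cannot move when a 3X array is left out, and only their tests can change. Of the lost calls 8 were those of Saa3 at 3X. The main fits did not take the replicate numbers to pair the arrays, and the correlations between arrays do not settle whether they do. Of the 9 same-number pairs, 5 had a correlation over 0.1 (-0.10 to 0.34), against 4 of 18 other pairs (-0.36 to 0.25). The pairs of replicate 3 had 0.29 to 0.34. With the replicate block 5 members were called higher in liver at 3X instead of 4, the plain Saa2 probe set being added (adjusted p = 0.0499), and 0 between cortex and cerebellum as without it. The filter on dim probe sets, which drops Orm1 and tests fewer probe sets, gave 1586 calls between liver and brain at 3X instead of 2537, 1802 instead of 3014 at 1X, 2465 instead of 4410 for 3X against 1X in liver, 3395 instead of 6214 in brain and 1002 instead of 1645 for the interaction. With cortex alone the brain count was 3259. Calls between cortex and cerebellum were 132, and 82 to 250 when an array was left out. The lone 1X arrays had no replicate check, and dim signals limit what the differences against brain can show.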
